A study of Sus scrofa with 8 samples.

Results

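The genes described here belong to cholesterol synthesis and to the sterol sensing system that controls it. They were taken from a list of 8 genes, HMGCS1, SQLE, IDI1, FDFT1, FDPS, INSIG1, SREBF2 and NSDHL. A gene entered when a probe of the array carried a RefSeq accession that maps to its symbol, and the probe with the highest mean log2 signal over all arrays stood for it. This left 4 genes, SQLE, FDPS, INSIG1 and NSDHL, of 3216 genes with a symbol on the array. HMGCS1, IDI1, FDFT1 and SREBF2 had no probe under this rule and were not analysed here. The 4 genes cover synthesis and its control, and none of them takes part in the uptake of lipoproteins itself.

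Transcript levels were read in the jejunum, the long absorptive stretch of the small intestine, at its middle, in Duroc × Landrace piglets aged 25 days. The weaned group held 4 piglets that had left the sow at 21 days of age for a nursery pen, where they ate a basal diet (20.50% crude protein and a digestible energy of 14.48 MJ/kg) during the 4 days before sampling. The suckling group held 4 piglets of the same age that stayed with the sow. The piglets came from 4 litters, 1 per litter and treatment, and each 1-colour array held the RNA of 1 piglet, taken from about 2 cm of the whole gut wall. Signals are given as log2 values relative to the 75th percentile of the same array, so a value of 0 marks that percentile and a difference of 1 is a doubling.

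Cells make cholesterol from acetyl-CoA through mevalonate, isoprene units, squalene and a chain of sterol intermediates. The pathway is run by the transcription factor SREBP2, the product of SREBF2. When membrane sterol is low, the escort protein SCAP carries SREBP2 out of the endoplasmic reticulum, and its target genes, synthesis enzymes among them, are transcribed. When sterol is plentiful, INSIG proteins hold SCAP back. The small intestine both makes cholesterol and takes it up from food and bile, and sow milk supplies cholesterol to the suckling piglet.

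All suckling arrays lay on one slide with one scan and all weaned arrays on the other, so the slide cannot be told apart from the group. Suckling replicate 1 lay apart from its group. Its 75th percentile was 245 intensity units, against 316.8 to 395 in the other 7 arrays, and its mean correlation with its own group was 0.958 across probes, against 0.972 to 0.985 in the others. The labelled tissue carried its markers: all 6 enterocyte markers with a probe were well above background on all 8 arrays. Of 8 liver and pancreas markers listed 6 had a probe and 3 were tested. ALB and CPA1 were well above background on all 8 arrays, TTR on 1 of 4 weaned and 3 of 4 suckling arrays, PNLIP on 0 of 4 weaned and 1 of 4 suckling arrays, CPB1 on 1 of 4 in each group and CYP2E1 on none. The 3 tested markers summed to 0.0987 to 0.146 multiples of the 75th percentile in weaned and 0.169 to 0.315 in suckling piglets. The summed level of the 6 enterocyte markers, in multiples of the 75th percentile, was 845.1 to 1477 in weaned and 561 to 2494 in suckling piglets, lowest in suckling replicate 1 and highest in suckling replicate 4. The 6 markers of dividing crypt cells summed to 20.99 to 40.44 in weaned and 12.55 to 41.19 in suckling piglets. All 6 had a higher mean in weaned piglets, as did 57.5% of all tested genes with a symbol. The part of these cell types in the results below was not tested, and in RNA from whole gut wall fewer cells of a type and less RNA per cell cannot be told apart.

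The comparison asks whether the 4 genes differed between weaned piglets and piglets still on milk. All 4 had a higher mean in weaned piglets, by 0.06 to 0.75 on the log2 scale, and none passed the test. The threshold was an adjusted p under 0.05 from limma, with Benjamini-Hochberg adjustment over all 30554 tested probes. At an unadjusted limma p under 0.05 the count was also 0 of 4. Over the whole array 0.177% of tested probes passed the adjusted threshold and 12.3% had an unadjusted p under 0.05. A mean higher in weaned piglets was common, at 57.5% of the 2813 tested genes with a symbol. The median difference of the 4 genes was 0.54, beside 0.06 over those 2813 genes. In all 4 genes the ranges of the groups overlapped, and over the tested genes with a symbol 7.54% did not overlap. Single piglets of both groups weighed on these values. Without suckling replicate 4 the differences of SQLE, FDPS and NSDHL were 1.07, 0.82 and 0.80, with unadjusted limma p of 0.0423, 0.0346 and 0.0144 and adjusted p of 0.451, 0.435 and 0.371. Without weaned replicate 3 the difference of NSDHL was 0.74, past an unadjusted limma p of 0.05 but with an adjusted p of 0.358. Without weaned replicate 4 the differences of SQLE, FDPS and NSDHL were 0.54, 0.25 and 0.43. Without suckling replicate 2 those of SQLE and FDPS were 0.43 and 0.30, and without suckling replicate 3 that of FDPS was 0.32.

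FDPS encodes farnesyl pyrophosphate synthase, which joins isoprene units into the farnesyl chain from which both squalene and the lipid anchors of proteins are made. Its probe A_72_P212122 read 3.30, 3.79, 3.20 and 4.39 in weaned replicates 1 to 4, against 3.29, 2.60, 2.66 and 4.15 in suckling replicates 1 to 4. Weaned replicate 4 and suckling replicate 4 were the highest arrays, and suckling replicates 2 and 3 were the lowest. The means were 3.67 ± 0.55 in weaned and 3.17 ± 0.73 in suckling piglets (SD, n = 4 each). The log2 difference was 0.50 (SE 0.39, 95% interval -0.39 to 1.38, limma adjusted p = 0.642).

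SQLE encodes squalene epoxidase, the first oxygen-dependent step of the pathway and one of its points of flux control. Probe A_72_P444903 read 1.60, 2.67, 2.11 and 2.94 in weaned replicates 1 to 4, against 2.19, 0.63, 0.96 and 2.54 in suckling replicates 1 to 4. Suckling replicates 2 and 3 lay below every other array, while suckling replicates 1 and 4 lay among the weaned arrays. The means were 2.33 ± 0.60 in weaned and 1.58 ± 0.93 in suckling piglets (SD, n = 4 each). This was the largest difference of the 4 genes, 1.68-fold or 0.75 on the log2 scale (SE 0.47, 95% interval -0.31 to 1.80, limma adjusted p = 0.554). The exact two-sided permutation p of SQLE alone was 0.229, and the smallest p that 4 against 4 arrays allow is 0.0286.

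NSDHL encodes a sterol dehydrogenase that helps to strip methyl groups from the ring system late in the pathway. Probe A_72_P467222 read -0.05, 0.55, -0.28 and 0.67 in weaned replicates 1 to 4, against -0.70, -0.47, -0.55 and 0.31 in suckling replicates 1 to 4. Without suckling replicate 4, which read higher than 2 of the weaned arrays, the groups would have been apart. The means were 0.23 ± 0.46 in weaned and -0.35 ± 0.45 in suckling piglets (SD, n = 4 each). The difference of 0.58 (SE 0.29, 95% interval -0.08 to 1.23) had the smallest p of the 4 genes, with a limma adjusted p of 0.46.

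INSIG1 encodes the endoplasmic reticulum protein that retains SCAP, and it is itself transcribed under SREBP control. Probe A_72_P186291 read 1.22, 1.10, 1.44 and 1.12 in weaned replicates 1 to 4, against 0.83, 1.33, 1.12 and 1.36 in suckling replicates 1 to 4. The groups lay on top of each other, with suckling replicate 1 the lowest array. The means were 1.22 ± 0.16 in weaned and 1.16 ± 0.25 in suckling piglets (SD, n = 4 each), a difference of 0.06 (SE 0.17, 95% interval -0.32 to 0.44, limma adjusted p = 0.914).

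**Figure D1:**
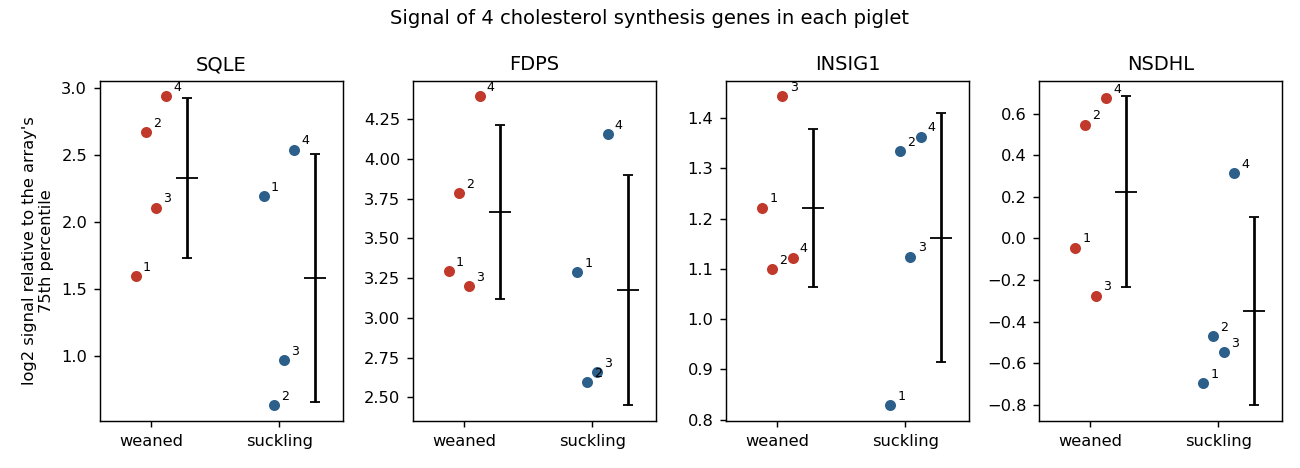
Log2 signal of SQLE, FDPS, INSIG1 and NSDHL relative to the 75th percentile of each array, 1 point per piglet with its replicate number, weaned left and suckling right, with the mean and SD (n = 4) beside the points. In SQLE and FDPS suckling replicates 2 and 3 lie lowest and suckling replicate 4 lies within the range of the weaned piglets, and in all 4 genes the groups overlap.

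The 4 genes had 10 probes between them, which allows a check on each reading. None of the 10 passed the threshold and none had an unadjusted limma p under 0.05, and 9 had a higher mean in weaned piglets, as did 54.9% of all tested probes. The 3 probes of SQLE followed each other across the 8 arrays, with Pearson's r of 0.921 to 0.995 between pairs of probes, and gave log2 differences of 0.75, 0.73 and 0.39. The 3 FDPS probes did likewise (r of 0.904 to 0.972, differences of 0.50, 0.38 and 0.26), as did the 2 NSDHL probes (r of 0.969, differences of 0.58 and 0.45).

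INSIG1 was the exception, with an r of 0.09 between its 2 probes. The dimmer probe A_72_P442208 read -0.66, 0.53, 0.37 and 0.07 in weaned replicates 1 to 4, against 0.25, -1.05, -0.02 and 1.92 in suckling replicates 1 to 4. It spread far more than the brighter probe among suckling piglets, with an SD of 1.23 against 0.25 (n = 4). Its mean was 0.07 ± 0.53 in weaned and 0.28 ± 1.23 in suckling piglets (SD, n = 4 each), a difference of -0.20 (SE 0.56, limma adjusted p = 0.911). Both probes were well above background on all 8 arrays, so which of them follows the INSIG1 transcript was not settled by detection.

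**Figure D2:**
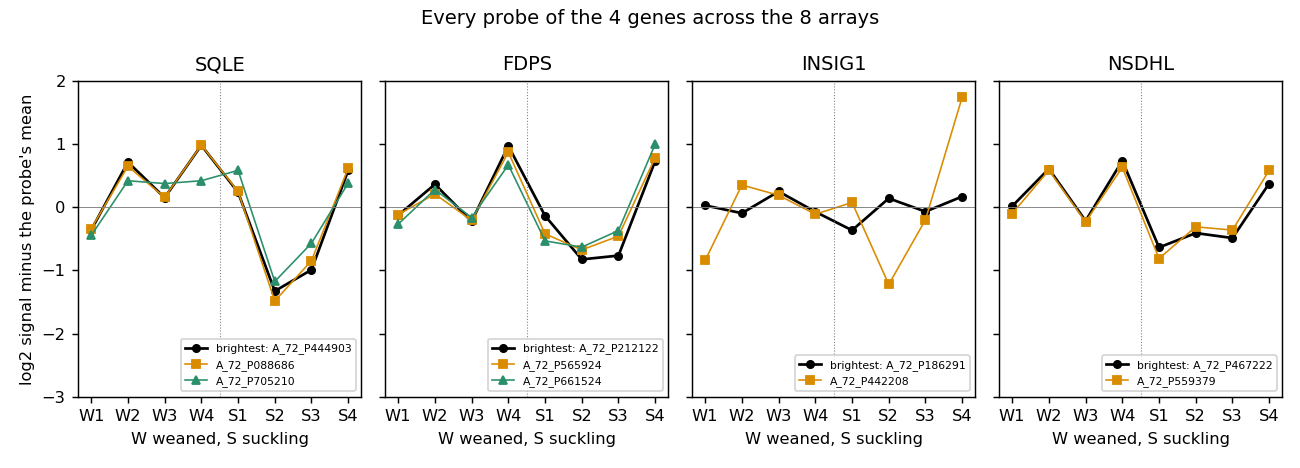
Log2 signal of every probe of the 4 genes minus that probe's own mean over the 8 arrays, weaned arrays (W1 to W4) left and suckling arrays (S1 to S4) right, with the brightest probe in black. The probes of SQLE, FDPS and NSDHL run together, while the 2 INSIG1 probes part, most of all in suckling replicates 2 and 4.

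Across single piglets SQLE and FDPS followed each other, with an r that varied by probe, and the result for INSIG1 depended on the probe. SQLE and FDPS had an r of 0.924 over the 8 piglets (exact permutation p = 0.00164) and a Spearman's rho of 0.905 (exact permutation p = 0.00456). This was 1 of 30 relations computed, the 6 pairs of the 4 genes and each of the 4 with 6 other synthesis enzymes, and the adjusted p over the 30 was 0.0491 for r and 0.123 for rho. Without suckling replicates 2 and 3, the piglets farthest from the SQLE median, r was 0.839 (exact permutation p = 0.0361). With each group's mean taken out r was 0.91, and a value within each slide is not given because a slide held 4 arrays. Among 2639 genes with a symbol, FDPS ranked 3 in likeness to SQLE and SQLE ranked 3 in likeness to FDPS; the median r of all these genes with SQLE was 0.08. The permutations here and below exchanged all 8 arrays freely, across group, slide and litter, so their p-values take the piglets as independent. The points share the array and its scaling. These values are for the brightest probe of each gene. FDPS probes A_72_P565924 and A_72_P661524 had r of 0.819 and 0.759 with the brightest SQLE probe. SQLE probes A_72_P088686 and A_72_P705210 had r of 0.917 and 0.732 with the brightest FDPS probe. Those r are descriptions with no test.

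FDPS and NSDHL had an r of 0.863 and a rho of 0.81 (exact permutation p = 0.00804 and 0.0218, adjusted p = 0.08 and 0.123 over the 30 relations), and r was 0.739 without suckling replicate 4 and weaned replicate 4 (exact permutation p = 0.0931). SQLE and NSDHL had an r of 0.733 and a rho of 0.714 (exact permutation p = 0.0435 and 0.0576, adjusted p = 0.0994 and 0.157). That r was 0.678 without suckling replicates 2 and 3 (exact permutation p = 0.142) and 0.914 without suckling replicate 1, where NSDHL was lowest and SQLE above its own mean. Neither relation passed after adjustment, and with their 2 farthest piglets left out neither passed unadjusted. The brighter INSIG1 probe had r of -0.192 with SQLE, -0.06 with FDPS and 0.155 with NSDHL (exact permutation p = 0.649, 0.887 and 0.727). The dimmer INSIG1 probe A_72_P442208 had r of 0.652 with SQLE, 0.624 with FDPS and 0.397 with NSDHL over the same arrays, given as a description with no test.

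**Figure D3:**
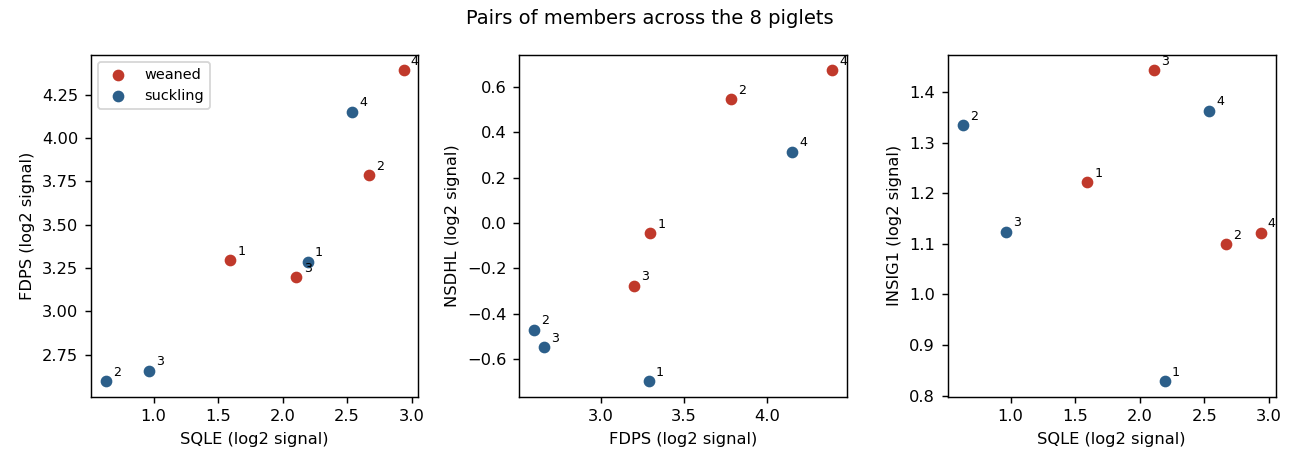
Log2 signal of FDPS against SQLE, NSDHL against FDPS and the brighter INSIG1 probe against SQLE, 1 point per piglet with its replicate number, weaned in red and suckling in blue. The brightest probes of SQLE and FDPS line up over both groups (r of 0.924, n = 8). The brighter INSIG1 probe has an r of -0.192 with SQLE (n = 8) and the dimmer one, not drawn, an r of 0.652.

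Of the 15 other synthesis enzymes listed, 6 had a probe and were tested, and none passed the threshold or had an unadjusted limma p under 0.05. Their median difference was 0.12, with 4 higher and 2 lower means in weaned piglets; over all tested genes with a symbol 42.5% had a lower mean. Values are given for 4 of the 6. CYP51, the lanosterol demethylase, read 3.72, 4.51, 3.94 and 4.89 in weaned replicates 1 to 4, against 4.14, 3.27, 4.36 and 5.46 in suckling replicates 1 to 4. Its highest array was suckling replicate 4 and its lowest suckling replicate 2, and the difference was -0.04 (SE 0.44, limma adjusted p = 0.979). MSMO1, a sterol methyl oxidase, averaged 1.92 ± 0.66 in weaned and 1.90 ± 1.06 in suckling piglets (SD, n = 4 each), a difference of 0.02 (SE 0.52, limma adjusted p = 0.99). PMVK, a kinase of the mevalonate branch, had a difference of -0.12 with a limma adjusted p of 0.883.

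HSD17B7, a reductase that acts after NSDHL in the removal of methyl groups, read 1.48, 1.77, 1.30 and 2.21 in weaned replicates 1 to 4, against 1.54, 1.14, 1.19 and 1.27 in suckling replicates 1 to 4. Suckling replicates 2, 3 and 4 lay below every weaned array, and suckling replicate 1 lay among them. The means were 1.69 ± 0.40 in weaned and 1.29 ± 0.18 in suckling piglets (SD, n = 4 each), a difference of 0.40 (SE 0.22, limma adjusted p = 0.487).

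All 4 of these enzymes had a positive r with SQLE, with FDPS and with NSDHL, at 0.327 to 0.742, 0.519 to 0.794 and 0.461 to 0.699. Over 2639 genes with a symbol the 95th percentile of r was 0.665 with SQLE, 0.675 with FDPS and 0.715 with NSDHL. With NSDHL all 4 enzymes lay below that level, and PMVK lay below it with SQLE and FDPS too. None of these 12 relations passed after adjustment over the 30. The brighter INSIG1 probe had r from -0.43 to 0.548 with the 4 enzymes. The dimmer INSIG1 probe, chosen for description after its values were seen, had r of 0.926 with MSMO1, 0.869 with CYP51 and 0.77 with PMVK over the 8 arrays, but 0.05 with HSD17B7. The enzymes themselves were not of one pattern: MSMO1 and CYP51 had an r of 0.967 with each other, while HSD17B7 had r of 0.303 with MSMO1 and 0.375 with CYP51.

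**Figure D4:**
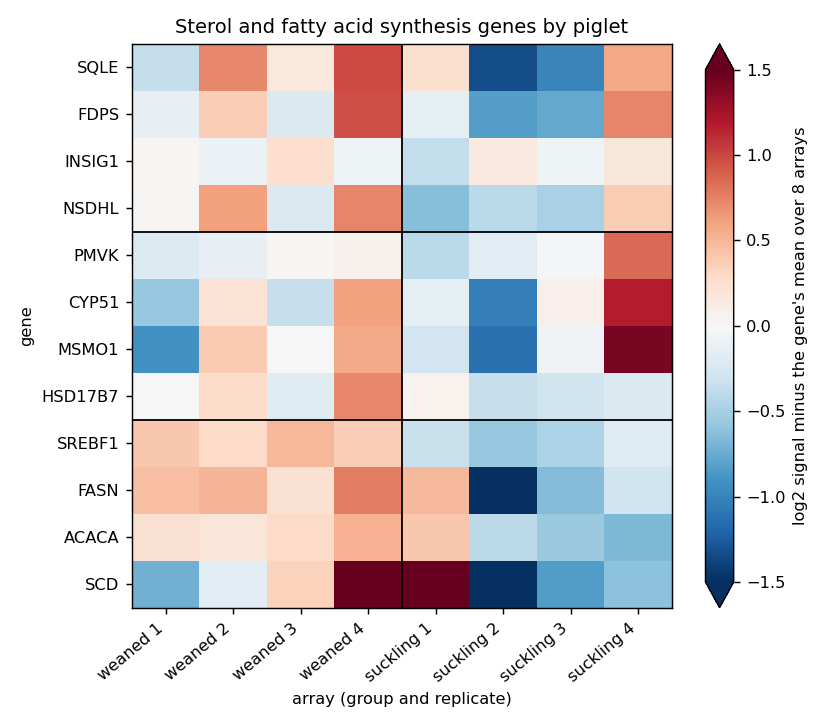
Log2 signal minus the gene's mean over the 8 arrays for the 4 genes (top block), 4 other synthesis enzymes (middle) and SREBF1 with 3 fatty acid synthesis genes (bottom), weaned arrays left and suckling arrays right; colours stop at the ends of the scale. Suckling replicate 2 is low and suckling replicate 4 high in FDPS, SQLE, CYP51 and MSMO1. The brighter SREBF1 probe splits by group, and the second SREBF1 probe, not drawn, does not.

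Among genes that control SREBP, 4 of 9 were tested and none passed. Beside 11.9% of all tested genes with a symbol, 1 of the 4 had an unadjusted limma p under 0.05. That gene was SREBF1, which encodes SREBP1, the relative of SREBP2 that acts mainly on fatty acid synthesis. Its brighter probe A_72_P326973 read 1.74, 1.62, 1.83 and 1.70 in weaned replicates 1 to 4, against 1.00, 0.76, 0.86 and 1.15 in suckling replicates 1 to 4. The groups did not overlap, as in 7.54% of the tested genes with a symbol. The difference was 0.78 (SE 0.14, 95% interval 0.46 to 1.10, limma adjusted p = 0.089). Without suckling replicate 1 it was 0.80 with a limma adjusted p of 0.0445, in a comparison where 1.82% of probes passed. With any other single array left out the limma adjusted p of SREBF1 was 0.141 to 0.326. Over all 19 alternative settings it ranged from 0.0182 to 0.333 and was under 0.05 in 3. The second SREBF1 probe, A_72_P223967, gave a difference of 0.07 (SE 0.21, limma adjusted p = 0.912), so the 2 probes disagree and the value is uncertain. SCAP differed by -0.02 (SE 0.17, limma adjusted p = 0.978) and stood highest in suckling replicate 1. INSIG2, the second INSIG gene, differed by -0.37 (SE 0.21, limma adjusted p = 0.514).

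Of the genes for lipoprotein uptake and for the handling of the cholesterol it brings in, 6 of 11 were tested and none passed the threshold or had an unadjusted limma p under 0.05. Their median difference was -0.18, with 4 lower and 2 higher means in weaned piglets, beside 42.5% lower over all tested genes with a symbol. SCARB1, a receptor for high-density lipoprotein that enterocytes carry, averaged 5.40 ± 0.92 in weaned and 6.27 ± 1.11 in suckling piglets (SD, n = 4 each), a difference of -0.86 (SE 0.60, limma adjusted p = 0.593). All 4 SCARB1 probes gave a lower mean in weaned piglets. STARD4, a carrier of cholesterol between membranes, differed by -0.44 (SE 0.26, limma adjusted p = 0.542). NPC1 and NPC2, which pass cholesterol out of lysosomes, differed by 0.15 and -0.21 (limma adjusted p = 0.816 and 0.712). LIPA, the lysosomal esterase, averaged 0.38 in both groups, and VLDLR, a lipoprotein receptor, differed by -0.15 (limma adjusted p = 0.777).

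For sterol absorption and export 3 of 12 genes were tested. NR1H3, the sterol-sensing receptor LXR alpha, differed by -0.04 (limma adjusted p = 0.957). MTTP, which loads lipid onto apolipoprotein B, differed by -0.22, and APOA1, the main protein of high-density lipoprotein, by -0.63 (limma adjusted p = 0.866 and 0.834). APOA1 read 5.23 in suckling replicate 1, against 9.66 to 9.95 in the other suckling arrays, and its difference was -1.76 without that array (limma adjusted p = 0.0683). It was -0.27, -0.29 and -0.19 without suckling replicates 2, 3 and 4 (limma adjusted p = 0.958, 0.953 and 0.964). Of the isoprenoid branch, FNTB, a subunit of the enzyme that attaches farnesyl groups to proteins, was the 1 gene tested of 11, with a difference of 0.16 (limma adjusted p = 0.778).

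Fatty acid synthesis, the other arm of SREBP targets, had 6 of 11 genes tested. The mean was higher in the weaned piglets for all 6 (median difference 0.52), beside 57.5% of all tested genes with a symbol. Of the 6, 2 had an unadjusted limma p under 0.05, beside 11.9% over all tested genes with a symbol, and none passed. FASN, the fatty acid synthase, read 5.37, 5.43, 5.16 and 5.70 in weaned replicates 1 to 4, against 5.41, 3.44, 4.28 and 4.62 in suckling replicates 1 to 4. The 4 weaned piglets lay close together and suckling replicate 1 lay among them. The difference was 0.98 (SE 0.37, limma adjusted p = 0.342). It was 0.64 without suckling replicate 2 and 1.30 without suckling replicate 1 (limma adjusted p = 0.506 and 0.058). The other FASN probes gave differences of 1.03 and 0.52 (limma adjusted p = 0.36 and 0.567). ACACA, which makes malonyl-CoA, differed by 0.61 (SE 0.24, limma adjusted p = 0.358), and by 0.85 without suckling replicate 1, where it passed (limma adjusted p = 0.0412). Under normexp background correction ACACA differed by 0.25 (limma adjusted p = 0.353), and without suckling replicate 4 by 0.49 (limma adjusted p = 0.53). SCD, a desaturase, spread widely in both groups, at 1.96 ± 1.20 in weaned and 1.20 ± 1.37 in suckling piglets (SD, n = 4 each), with a difference of 0.76 (limma adjusted p = 0.72). Its difference was 0.20 without weaned replicate 4, 1.41 without suckling replicate 1 and 0.34 without suckling replicate 2 (limma adjusted p = 0.939, 0.216 and 0.912).

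**Figure D5:**
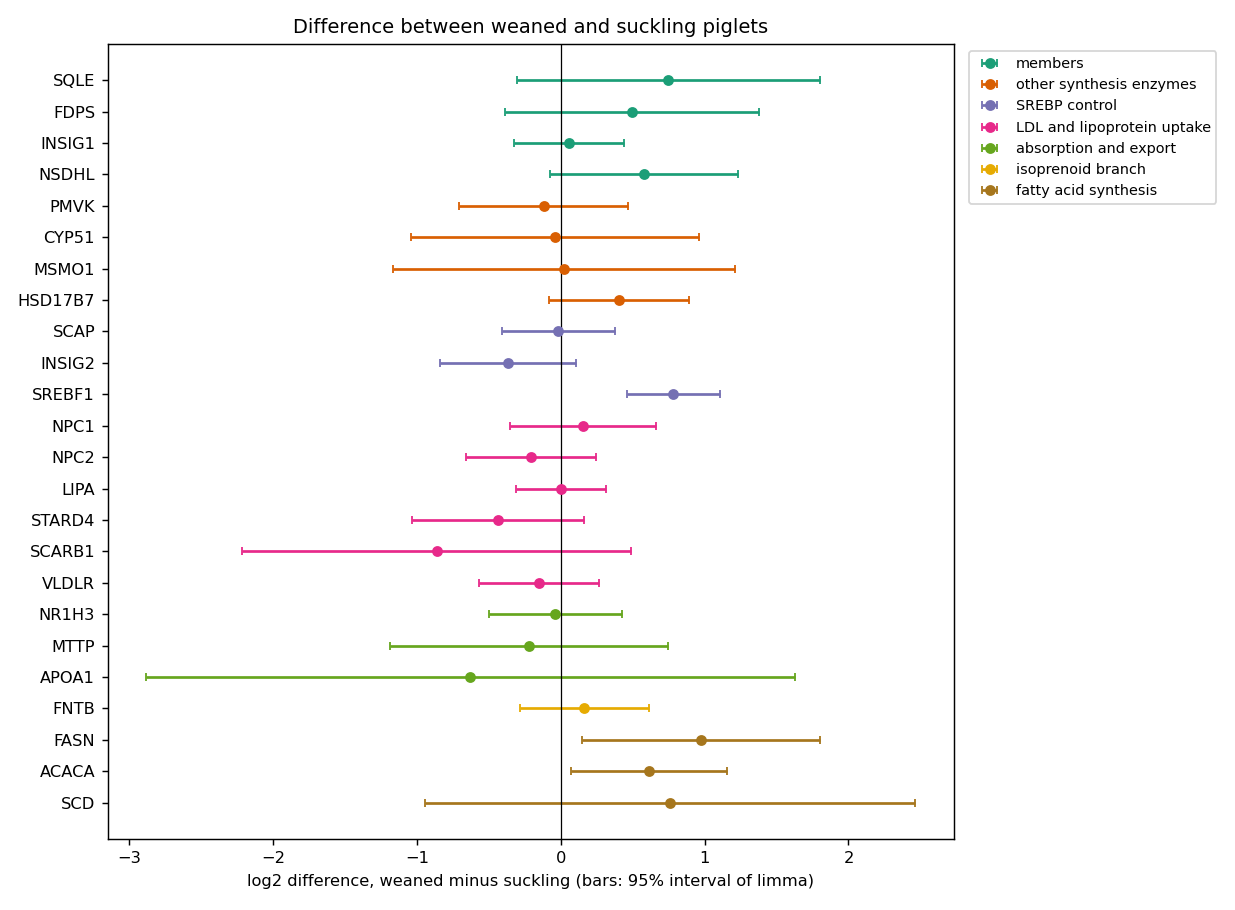
Log2 difference, weaned minus suckling, with the 95% interval of limma for the 4 genes and for 20 other genes, coloured by list. The intervals of the 4 genes all hold 0, and SREBF1, FASN and ACACA, each by its brightest probe, are the genes whose interval lies above 0.

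Over the 6 lists, 26 of 69 other genes were tested and 0 passed with limma. Of the 26, 3 had an unadjusted limma p under 0.05, beside 11.9% of all tested genes with a symbol. The mean in weaned piglets was higher in 14 and lower in 12, beside 57.5% higher over all tested genes with a symbol. The median difference of the 26 was 0.01.

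The mean of the 4 genes, each centred on its own average, was -0.11, 0.40, -0.01 and 0.66 in weaned replicates 1 to 4, against -0.22, -0.60, -0.58 and 0.47 in suckling replicates 1 to 4. The 5 genes most like this profile were sought among 2636 genes with a symbol that were well above background on all 8 arrays. They were DERL1, which draws misfolded proteins out of the endoplasmic reticulum, MDH2, the mitochondrial malate dehydrogenase, ATP5G1 and ATP5J2, which encode subunits of ATP synthase, and TUBB2B, a tubulin. Their Pearson's r with the profile was 0.946, 0.941, 0.917, 0.916 and 0.914 over 8 arrays. Their own differences were 0.24 to 0.47, and none passed (limma adjusted p = 0.408 to 0.643). Of the 4 synthesis enzymes described above, MSMO1, CYP51, HSD17B7 and PMVK stood at ranks 61, 75, 98 and 380, with r of 0.764, 0.749, 0.726 and 0.504. NR1H3 stood near the far end, at rank 2613 with an r of -0.767.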

How the data were processed

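RNA extracts with an integrity number of 7.0 or more were labelled with Cy3 and hybridised, per the labels. Scans were read with Agilent Feature Extraction 10.7 (submitters' processing notes), and per the file headers the deposited processed intensity is already background-subtracted. The deposited log2 table of the same arrays had the rank order of the processed intensity and equal column medians of 5.5; its normalisation and centring are not given in the sources used here.

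Control spots were left out, outlier spots set to missing and spots of a probe averaged on the log2 scale (43603 probes); each array's 75th percentile was subtracted. A probe was tested when well above background on at least 4 arrays with 3 values per group. RefSeq accessions gave 6924 of 8091 such probes a symbol through a gene table of Sscrofa11.1, used for names alone; CYP51 was matched as a synonym. Weaned and suckling arrays were set against each other in R 4.3.3 by limma 3.58.1 (group as the sole term, two-sided, p adjusted by Benjamini-Hochberg). The fit was checked on simulated data, where it recovered 35.2% of the changed probes at a size of 1 and 88% at a size of 2. A gene that did not pass can therefore still differ. The labels do not say which litter a number stands for. The limma p-values set the group difference against the spread between piglets of a group, and that spread does not cover a difference between the slides. Deviations of same-numbered arrays correlated at 0.368, 0.008, 0.186 and -0.018 for numbers 1 to 4, so the numbers were not taken as pairs. These correlations do not settle whether same-numbered piglets came from the same litter. Precision is limited by the number of arrays.

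The members and lists were chosen with earlier results of these data known. Named were the 4 members, every tested gene of the synthesis and uptake lists (2 are not reported here, and counts and adjustments keep them), the first 3 tested of each other pathway list, and the 5 genes most like the members' mean. Alternatives were other scalings, normexp with an offset of 50 on the median spot intensity, other filters, flagged spots kept, a trended robust prior, array weights, a replicate block, the deposited table, the mean over a gene's probes and each array left out.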

Additional observations from a re-analysis of the deposited data

Results flagged for a closer look

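Of 60 groups of 4 arrays examined for the named genes and for the mean of the members, 4 had 1 array far from the other 3, where chance flags about 1 in 20 groups, or 3 here. Each value below is the distance of that array from its nearest neighbour as a share of the group's range. SCAP was highest in suckling replicate 1 (0.918) and APOA1 was lowest there (0.938). DERL1 (0.83) and TUBB2B (0.845) were highest in suckling replicate 4, the suckling array in which FDPS, SQLE and NSDHL also stood highest. Both genes were picked for their likeness to the members' mean, which was itself highest among the suckling arrays in replicate 4. Their shared peak follows from that choice and is no separate observation, and the count of 4 includes them. None of the 4 members was among the groups with such an array.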

How the results depend on the processing

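The count of 0 of 4 members past the threshold held under all 19 alternatives, and the median difference of the members, 0.54, lay between 0.34 and 0.81 when 1 array was left out. With the replicate block the count of probes past the threshold was 0 and no member or pathway gene passed. The numbers do not pair the arrays by the labels. In that fit NSDHL had an unadjusted limma p of 0.0183 (limma adjusted p = 0.293). The SEs of SQLE, FDPS, NSDHL and INSIG1 were 0.415, 0.225, 0.18 and 0.182 there, beside 0.465, 0.389, 0.289 and 0.169 in the reported fit. With array weights SQLE and NSDHL differed by 1.07 and 0.65, with unadjusted limma p of 0.0363 and 0.0401 (limma adjusted p = 0.2 and 0.208). FDPS and INSIG1 stayed above 0.05 in both fits. The probe count of 54 was 328 with array weights and 9 to 553 with 1 array left out, highest without suckling replicate 1 and lowest without weaned replicate 4. The count of pathway genes was 1 under normexp and 1 with array weights (SREBF1, limma adjusted p = 0.0182 and 0.0376), and 0 to 2 with 1 array left out. Signs turned in 8 of the 29 named genes, and no named gene was called in the reported fit. MSMO1 was -0.025 under quantile normalisation, -0.0201 under median scaling, -0.091 under normexp and -0.026 with the deposited table. LIPA was -0.043 under median scaling, -0.00076 under normexp and -0.00103 with flagged spots kept. INSIG1 was -0.0031 under normexp, -0.034 with array weights and -0.071 over both probes. CYP51 and SCAP were 0.078 and 0.078 with array weights, and NR1H3 was 0.00072 over its probes. With 1 array left out the ranges were -0.35 to 0.50 for MSMO1, -0.045 to 0.061 for LIPA, -0.052 to 0.13 for INSIG1, -0.39 to 0.34 for CYP51, -0.076 to 0.14 for SCAP, -0.16 to 0.10 for NR1H3, -0.28 to 0.14 for PMVK and -0.68 to 0.044 for MTTP. Among relations between members, tried under 12 settings chosen after seeing the data, r of FDPS and INSIG1 ranged from -0.266 to 0.113 and that of INSIG1 and NSDHL from -0.383 to 0.292 with 1 array left out, and the unadjusted call of SQLE with NSDHL was lost under quantile normalisation, normexp and the deposited table (r of 0.692, 0.711 and 0.693) and without each array but suckling replicate 1. The cause of these shifts was not tested.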
